A study of Mus musculus with 15 samples.

Results

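Sites of FLAG-tagged Sp7 in primary mouse osteoblasts were compared with sites of FLAG-tagged Dlx5 in the MC3T3-E1 cell line, from ChIP-seq peak lists with 2 libraries for each factor. A region of a factor was a set of merged peaks that held a peak of both of its replicates and met no control peak from its own cell system. This gave 2097 primary Sp7 regions and 23688 cell line Dlx5 regions, out of 47949 regions of the 5 tagged groups of the series. Of the primary Sp7 regions, 1448 overlapped a Dlx5 region by at least 1 bp and 649 did not. The primary cells came from calvaria of C57BL/6 pups at postnatal day 1 with the genotype Sp7-BioFL/BioFL, a FLAG-tagged Sp7 on both alleles, and the primary control came from wild-type pups of the same strain and age. MC3T3-E1 is a pre-osteoblast line from mouse calvaria. At passages 5 to 10 it spent 1 week in osteogenic medium, which held 10% FBS, ascorbic acid phosphate (50 ug/ml), recombinant human BMP-2 (10 ng/ml) and beta-glycerophosphate (10 mM). The cell line groups carried Dlx5-FLAG or, as control, GFP-FLAG, and how the proteins were expressed, at what level and in 1 clone or many is not stated in the labels. After fixation with 1% formaldehyde, all tagged and control samples were precipitated with the FLAG antibody M2. The comparison changes the factor and the cell system together, so the effect of either cannot be told apart from that of the other. Osteoblast identity could not be checked, because the lists hold positions and no expression.

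Sp7, also called Osterix, is a zinc finger transcription factor that osteoblasts need in order to mature, and mice without it form no bone. Dlx5 is a homeodomain factor of the distal-less family that acts in craniofacial and limb skeleton, and homeodomains bind short AT-rich sequences, where members of the Sp family typically bind GC-rich boxes. The series' title names Sp7 as a co-factor of Dlx proteins. Overlap of sites from different cell systems shows which positions are shared, and it cannot show that the factors act together.

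The primary Sp7 lists held 2666 and 3212 peaks and the Dlx5 lists 30234 and 39749, against 183 in the wild-type and 269 in the GFP control. Median peak widths were 195 and 176 bp for Sp7 and 178 and 173 bp for Dlx5. Control peaks met 87 and 103 of the primary Sp7 peaks and 173 and 121 of the Dlx5 peaks. The lists give no read counts, so the depth is unknown and the intervals below cover counting error only. Their rows are not in genomic order, and what they were sorted by is not stated. Row position is therefore reported as the authors' order and not as a measured signal. No test was made, since 2 libraries for each factor allow too few regroupings for an exact permutation test to reach the 5% level. As a guide to the replicate spread, the range that the 4 pairings of 1 primary and 1 Dlx5 list gave is shown. The pairings share lists and use peaks of single lists, so a value over regions of both replicates can lie outside this range. The labels do not say that replicates came from separate cultures or litters.

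More than 2 in 3 primary Sp7 regions lay on a Dlx5 region, while few Dlx5 regions lay on a primary Sp7 region. The share of primary Sp7 regions with Dlx5 was 69.1% (95% exact binomial interval 67.0 to 71.0, 1448 of 2097). Primary replicate 1 met Dlx5 at 66.9% of its peaks with Dlx5 list 1 and at 79.4% with Dlx5 list 2. Primary replicate 2 did so at 63.3% and 75.7%. The higher value of each pair came with the longer Dlx5 list, and the gap between the Dlx5 lists was larger than that between the primary lists. Seen from Dlx5, 6.12% of regions (5.82 to 6.43, 1449 of 23688) met a primary Sp7 region, and single lists gave 5.17% to 6.57%. With only the wider 50% of peaks in each list the shares were much lower, at 15.7% of primary Sp7 and 1.44% of Dlx5 regions. With the earlier 50% of the rows of each list they were 70.4% and 6.34%. The sites matched nearly 1 to 1: 1447 primary regions met exactly 1 Dlx5 region, 1 met more than 1, and no Dlx5 region met more than 1 primary region.

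Primary Sp7 regions that lacked a Dlx5 region were not all free of Dlx5 peaks. Of the 649, 284 held a peak of Dlx5 replicate 2 alone and 24 a peak of replicate 1 alone. A further 6 lay on a Dlx5 region that also met a GFP control peak, 5 met separate peaks of both replicates that did not touch each other, and 330 held no Dlx5 peak at all. The last class made up 15.7% of all primary Sp7 regions (14.2 to 17.4). The 285 Dlx5 replicate 2 peaks met in this way stood at a median of 37.3% of the way down their list, where all 15629 peaks of that list without a partner in replicate 1 had a median of 71.3%. Primary regions that met both Dlx5 replicates did so at a median of 4.05% down the same list. Dlx5 peaks at primary Sp7 regions that only the longer list held thus stood between these groups in its order.

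**Figure D1:**
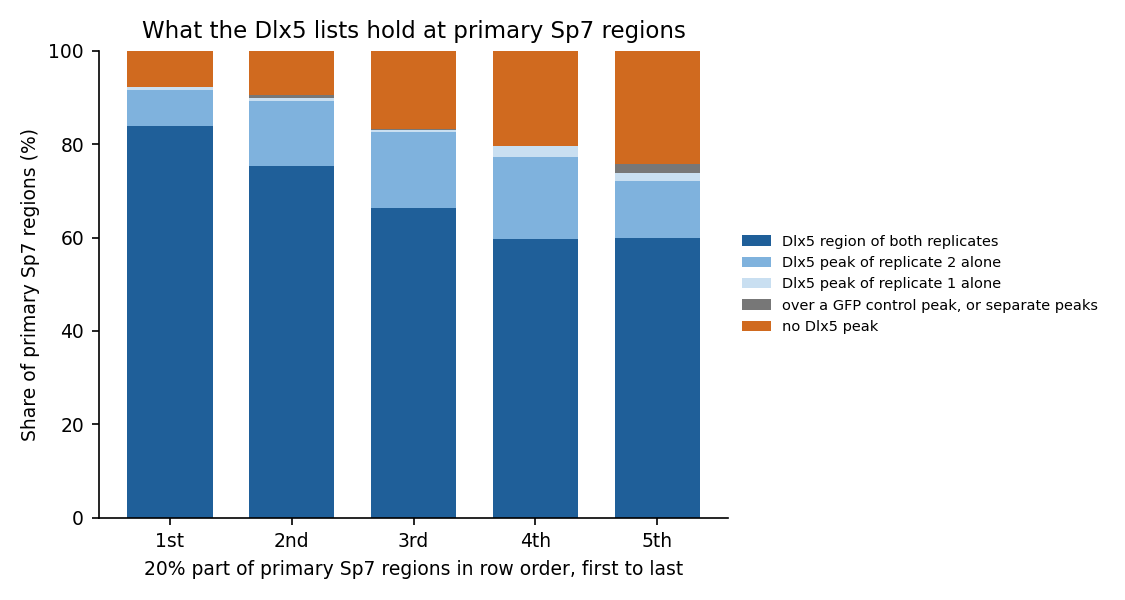
What the 2 Dlx5 lists held at the 2097 primary Sp7 regions, as shares (%) of each 20% part of these regions in row order. Dark blue, a Dlx5 region of both replicates, shrank from 83.8% in the first to 59.9% in the last part, while orange, no Dlx5 peak, grew from 7.86% to 24.3%.

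The overlap with Dlx5 was most frequent at the start of the primary Sp7 order and fell along it. In the first 20% of regions 83.8% met Dlx5 (79.9 to 87.2), followed by 75.4%, 66.4%, 59.7% and 59.9% in the later parts. The last pair differed by less than its intervals, while in single lists the share went on falling between these parts, from 58.4% to 74.0% in the fourth to 50.7% to 68.7% in the last, and in each of the 4 pairs. Among the first 10 regions 9 met Dlx5, among the first 100 it was 89, and among the first 500 it was 418. In the 4 pairs of single lists the first 20% of peaks gave 77.5% to 90.9%, a range that did not overlap that of the last 20%. The difference between the first and last part was 23.9 percentage points over regions and 22.2 to 26.8 over the pairs of lists, but 8.99 with the wider 50% of peaks in each list. On 19 of 20 chromosomes the earlier part of the regions, up to the middle of the order, had the higher share, the exception being X with 13 regions. Ordered by peak width instead, the first and last parts differed by -1.59 points, and the 5 parts lay between 67.9% and 70.5%. Row and width positions were nearly unrelated, with a Spearman rho of -0.16 across the 2097 regions.

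**Figure D2:**
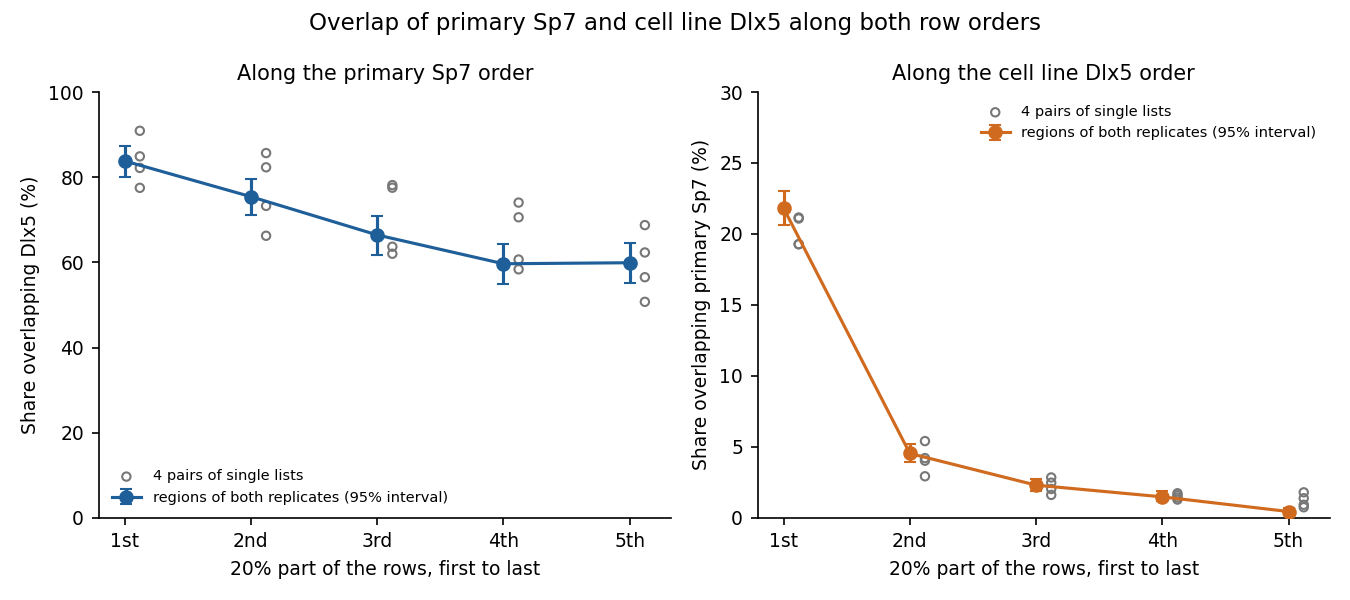
Shares (%) of regions that overlap the other factor, in 20% parts of the primary Sp7 order (left) and of the Dlx5 order (right). Filled points are regions of both replicates with 95% exact binomial intervals, and open points the 4 pairs of single lists. The left curve falls from 83.8% to 59.9%, and the right one from 21.8% to 4.54% within the first 2 parts, on an axis that ends at 30%.

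Along the Dlx5 order the overlap was held by the first rows. Of the Dlx5 regions in the first 20%, 21.8% met primary Sp7 (20.7 to 23.0), then 4.54%, 2.30%, 1.48% and 0.443% in the parts that followed. Single Dlx5 lists gave 19.3% to 21.2% in the first part, 2.93% to 5.41% in the second and 0.744% to 1.80% in the last. The first and last parts differed by 21.4 percentage points over regions, and by 4.71 with the wider 50% of the peaks. At the very start the 2 lists named largely common sites: 9 of the first 10 Dlx5 regions, 80 of the first 100 and 520 of the first 1000 were primary Sp7 regions. Dlx5 regions that met primary Sp7 had a median position of 7.94% down the Dlx5 order (quartiles 2.47 and 23.9), against 52.5% for the other Dlx5 regions (28.3 and 76.4). Shortened to its first 2097 regions, the Dlx5 set met 35.7% of the primary Sp7 regions (33.7 to 37.8). With 5000 regions it met 50.1%, with 10000 it met 60.1%, and with all of them the 69.1% given above.

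Regions early in the primary order met early Dlx5 regions. Of the shared regions in the first 20% of primary Sp7, 85.5% lay in the first 20% of Dlx5, and the median Dlx5 position was 2.67%. In the last 20% of primary Sp7 these values were 56.6% and 14.8%. No shared region joined the first part of the primary order to the last part of the Dlx5 order, and 7 joined the last parts of both. The positions across the 1448 shared regions had a Spearman rho of 0.38, and 0.33 to 0.40 over the 4 pairs of lists. Replicates of a factor, over the same regions, had a rho of 0.82 for primary Sp7 and 0.82 for Dlx5. These are descriptions across regions, which share libraries and are not independent.

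**Figure D3:**
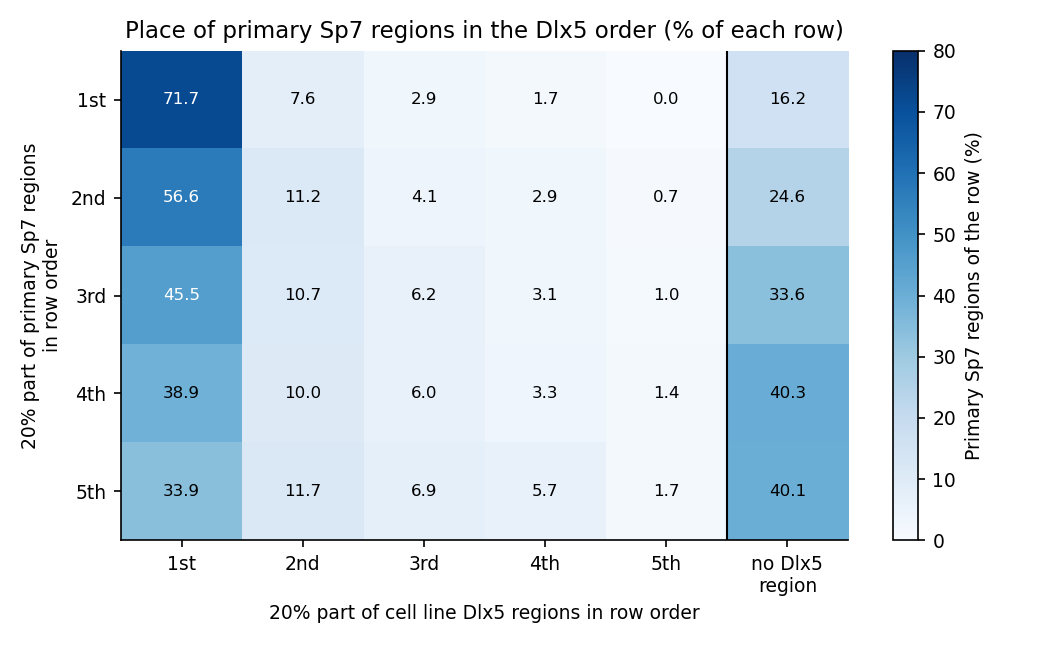
Each row is a 20% part of the primary Sp7 regions in row order, and the colour and number give the share (%) of that part that met each 20% part of the Dlx5 order or no Dlx5 region. The first row holds 71.7% in the first Dlx5 part and the last row 33.9%.

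At 813 regions all of primary Sp7, cell line Dlx5 and cell line Sp7 were found, and the 3 orders could be set side by side. Primary Sp7 and Dlx5 had a rho of 0.44 there, and primary Sp7 and cell line Sp7 a rho of 0.33. Over pairs of single lists these were 0.41 to 0.44 and 0.26 to 0.36. By these values the order of primary Sp7 was no nearer to that of the same factor in the line than to that of Dlx5. The agreement of the cell line Sp7 replicates was not measured, and their lists differed in length, at 18624 and 6063 peaks. Its part in the lower rho was not tested. Cell line Sp7 and Dlx5, which come from 1 cell system and were called against 1 input, had a rho of 0.69, with 0.45 to 0.73 over single lists.

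The leading shared regions were mostly sites of tagged Sp7 in the cell line too. Positions are 1-based in mm9, and no gene or base is given for them because no sequence or annotation of that build was used. The first primary Sp7 region, chr3:97860743-97860903, stood in rows 9 and 18 of the primary lists. Of the 8 and 17 rows before it, 7 and 14 met a peak of the wild-type control. It was the 69th Dlx5 region, with midpoints 5 bp apart. The second, chr17:44447255-44447412, in rows 8 and 20, was the 9th Dlx5 region, 3.5 bp away. The third, chr19:23458763-23458967, in rows 10 and 22, was the 2nd Dlx5 region, 5 bp away. All 3 were also cell line Sp7 and Sp7mut regions and not Sp1 regions, Sp7mut being a mutant Sp7 whose change the labels do not give and Sp1 a widely expressed member of the same family.

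Next in the order, chr17:42534544-42534746 stood in rows 11 and 25 of the primary lists but only 6045th in Dlx5, with midpoints 20.5 bp apart, no other Dlx5 region within 50 kb and none of the other cell line factors. The regions chr7:91224403-91224582 (51st in Dlx5), chr10:66406383-66406687 (95th), chr18:63437565-63437762 (157th), chr4:128896015-128896191 (68th) and chr10:60257209-60257385 (40th) followed. Each of these 5 was a cell line Sp7 and Sp7mut region. The midpoints of the second lay 97 bp apart, in a primary region of 305 bp, and those of the other 4 between 3 and 11.5 bp. The 10th, chr19:58375368-58375564, was 3861st in Dlx5 and a region of Sp7mut but not of cell line Sp7. So 8 of the 10 leading shared regions stood among the first 157 of 23688 Dlx5 regions and the other 2 far below.

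Primary Sp7 regions without Dlx5 first appeared at the 9th place. That region, chr10:20194823-20194992, stood in rows 16 and 42 of the primary lists, and held a peak of Dlx5 replicate 2 alone. The 15th, chr10:125562996-125563225, did likewise, and the nearest Dlx5 region lay 113 kb from the former and 131 kb from the latter. The 22nd, chr13:35695438-35695642, in rows 32 and 86, had no Dlx5 peak, no peak of any tagged factor in the cell line, and no Dlx5 region nearer than 449 kb. Another primary Sp7 region lay 214 bp from it. The 33rd, chr7:137119894-137120061, held a peak of Dlx5 replicate 1 alone, was a region of cell line Sp7 and Sp7mut, and had another primary region 527 bp away. Of the first 10 regions without Dlx5, 7 held a Dlx5 peak of replicate 2 alone, 1 of replicate 1 alone, and 2 held none, the second of these being chr4:32273025-32273174.

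Peaks of Dlx5 that led their order without primary Sp7 were few. The first, chr18:54874246-54874450, was the 8th Dlx5 region, stood in rows 12 and 17 of its lists, and had a primary Sp7 region 1791 bp away. It was followed by chr6:135038427-135038650 (18th), chr15:63232027-63232194 (28th), chr17:39984497-39984580 (32nd) and chr10:37855995-37856152 (35th). All 5 were cell line Sp7 regions, so each was a site of tagged Sp7 in the line. The gaps from these 4 to the nearest primary Sp7 region ran from 10.6 to 2550 kb.

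Peak centres of primary Sp7 and Dlx5 lay about as close as those of the primary Sp7 replicates. Over the 4 pairs of lists the median distance between midpoints of overlapping peaks was 22.5, 23, 23.5 and 24.5 bp. It was 23 bp between the primary Sp7 replicates and 26.5 bp between the Dlx5 replicates. The Dlx5 value included many late rows, so the distances were also taken at the 1426 shared regions with exactly 1 peak in each of the 4 lists. There the medians were 21.5 to 22.5 bp between the factors, 22 bp between the primary replicates and 15 bp between the Dlx5 replicates. With the midpoints of the replicates averaged first, the factors lay 17.4 bp apart (quartiles 7.5 and 34.7).

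Midpoints lay closest at the start of the primary order. At the matched regions, the medians between factors were 16.5 to 18 bp in the first 20% and 25.5 to 31 bp in the last 20%. The primary replicates went from 17 to 27.5 bp and the Dlx5 replicates from 11.5 to 18.5 bp in the same parts. The distance between factors therefore grew together with that between replicates. Most overlaps were broad: the median overlap was 174 bp, which was 80.3% of the primary and 96.1% of the Dlx5 region. In 588 of the shared regions the Dlx5 region lay wholly inside the primary one and in 168 the reverse held, while 1 overlap was under 20 bp. On the other side of the 1 bp limit, 20 primary Sp7 regions without Dlx5 had a Dlx5 region within 200 bp.

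**Figure D4:**
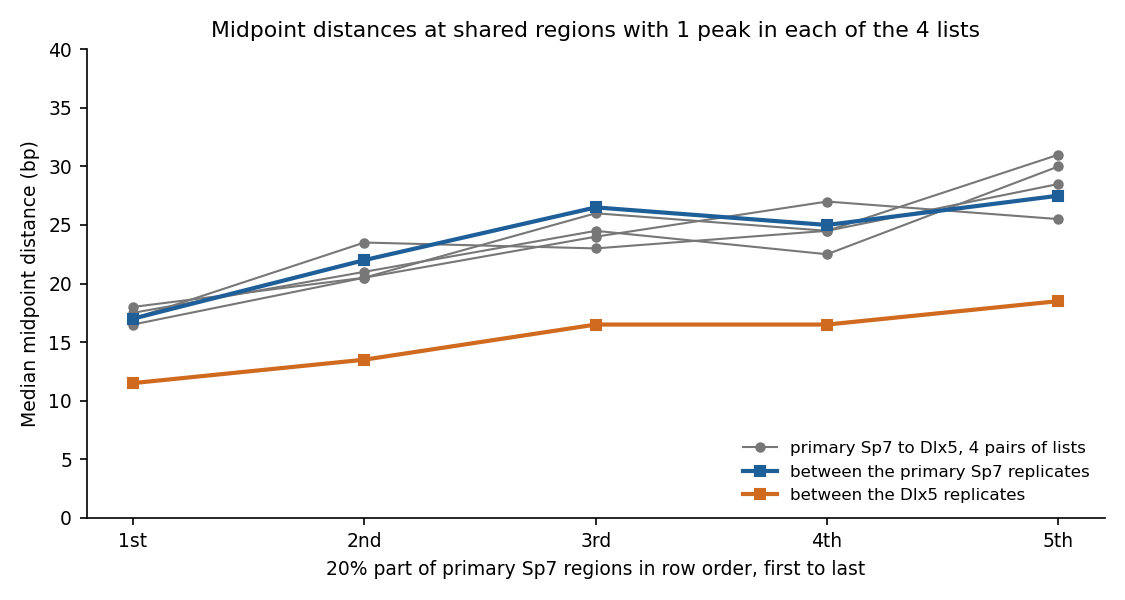
Median distance (bp) between peak midpoints at the 1426 shared regions with 1 peak in each of the 4 lists, in 20% parts of the primary Sp7 order. Grey lines, the 4 pairs of a primary Sp7 and a Dlx5 list, run along the blue line of the primary replicates (17 to 27.5 bp), and the orange line of the Dlx5 replicates lies below (11.5 to 18.5 bp).

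Primary Sp7 regions were mostly isolated, and those with Dlx5 were not the more clustered ones. Another primary Sp7 region lay within 10 kb of 12.2% of them (10.8 to 13.7). The share was 11.1% with Dlx5 (9.55 to 12.9) and 14.6% without (12.0 to 17.6), a difference of -3.52 percentage points with overlapping intervals. In each of the 4 pairs of single lists the peaks without Dlx5 had the higher share, by 1.80 to 10.1 points, although the pooled ranges, 13.5% to 16.8% and 15.6% to 26.6%, overlapped. With only the wider 50% of each list the difference was 0.674 points in the other direction. At matched row position the regions without Dlx5 were also the higher in each of the 5 parts, from 12.5% to 21.4% against 8.96% to 12.8%, with overlapping intervals in each. Within 2 kb the shares were 3.66% with Dlx5 (2.75 to 4.76) and 6.78% without (4.97 to 8.99), and these intervals did not overlap. Within 50 kb they were 28.3% and 30.5%, with overlapping intervals.

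Linked in steps of at most 10 kb, 256 primary Sp7 regions formed 124 groups, of which 119 were pairs, 4 held 3 regions and 1 held 6. All members had Dlx5 in 53 groups, none had in 23, and 48 groups were mixed. Regions in groups had Dlx5 at 62.9%, and lone regions at 69.9%. The group of 6 spanned 11.7 kb at chr1:64887570-64899295 and 4 of its members met Dlx5. Its earliest member, at chr1:64887570-64887768, was the 280th primary and the 397th Dlx5 region, and its last in the primary order, chr1:64891453-64891795, was 2004th and had no Dlx5 peak. The 4 groups of 3 lay at chr16:74044706-74055852, chr4:62397658-62405898, chr10:19316645-19322271 and chr3:88307973-88316932, and all 12 of their members met Dlx5. Within the chr16 group the primary ranks 106, 805 and 1129 went with Dlx5 ranks 3268, 10641 and 21764, in the same order. The groups on chromosomes 4 and 10 also had 1 order in both, whereas in the chr3 group primary ranks 612, 667 and 768 went with Dlx5 ranks 7493, 6122 and 4483, the reverse. In the group of 6 the members with Dlx5, at primary ranks 280, 1286, 1570 and 1845, had Dlx5 ranks 397, 161, 945 and 3704.

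Within 10 kb, regions of Dlx5 lay around primary Sp7 sites more often where Dlx5 also met the site itself. Leaving out the overlapping one, a Dlx5 region lay within 10 kb of 49.2% of primary Sp7 regions with Dlx5 (46.6 to 51.8) and of 31.1% of those without (27.6 to 34.8). Pairs of single lists gave 54.3% to 64.2% and 35.6% to 43.6%, so the ranges did not overlap. Of all Dlx5 regions, 48.1% had another Dlx5 region within 10 kb, so the 49.2% was near the share for any Dlx5 region. At matched row position the shares were 45.4% to 52.4% with and 23.5% to 35.1% without, and the former was higher in all 5 parts, though in the last part the intervals met. Within 50 kb they were 83.5% and 64.9%, and 84.1% of all Dlx5 regions had another one that near. Within 2 kb the classes were closer, at 17.7% (15.7 to 19.7) and 13.4% (10.9 to 16.3) with overlapping intervals, and in the last 20% of the order the direction turned, to 16.7% and 18.5%. The nearest Dlx5 region to a primary region without Dlx5 lay at a median of 23.8 kb (quartiles 6.83 and 98.2), and at 34.4 kb where no Dlx5 peak was present. From the other side, Dlx5 regions without primary Sp7 were 236 kb from the nearest primary region.

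Up to groups of 9, Dlx5 regions in groups were met about as often per region as lone ones. Another Dlx5 region lay within 10 kb of 49.2% of Dlx5 regions with primary Sp7 and of 48.0% of the others. The difference of 1.21 percentage points changed its sign over the pairs of lists, from -0.786 to 1.18. It also did so within 2 kb (-2.72) and within 50 kb (-0.588). Lone Dlx5 regions met primary Sp7 at 5.98%, members of pairs at 6.16%, of groups of 3 to 4 at 6.35% and of groups of 5 to 9 at 6.35%. The share was highest, at 8.22% of 73 regions, in the 6 groups of 10 to 21, of which 4 held a primary Sp7 region. It rested on only 6 met regions, and no interval was taken for it. Within the first 20% of the Dlx5 order the shares were 21.5% for lone regions, 22.2% for groups of 2 to 4 and 21.6% for larger ones. Counted per group, 28.2% of the 248 groups of 5 to 9 held a primary Sp7 region, against 11.7% of 2932 pairs. A larger group has more regions that can be met, so with near-equal shares per region this contrast follows from size.

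Inside a Dlx5 group, the member met was mostly the one that stood first in row order. In 342 Dlx5 pairs with primary Sp7, the earlier member was met in 88.3%, where 52.8% of the members were met on average. In 226 groups of 3 to 4 these values were 77.4% and 35.0%, and in 70 groups of 5 to 9 they were 72.9% and 22.5%. The share met falls along the whole Dlx5 order, so earlier members of any set would be met more often. Sets of regions outside groups were not compared, so this cannot be read as a trait of groups.

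**Figure D5:**
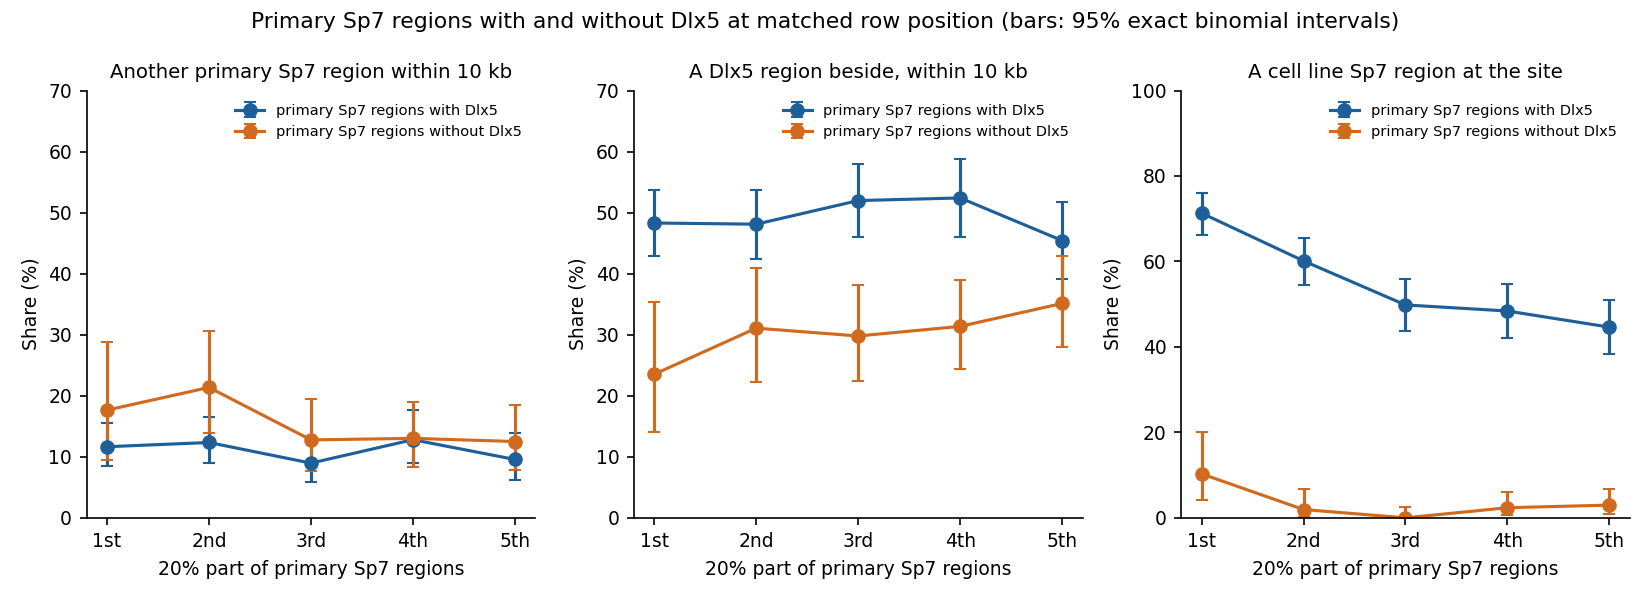
Primary Sp7 regions with (blue) and without (orange) a Dlx5 region, in 20% parts of the primary row order, as shares (%) with another primary Sp7 region within 10 kb (left), a non-overlapping Dlx5 region within 10 kb (middle) and a cell line Sp7 region at the site (right, axis to 100%). Bars are 95% exact binomial intervals, and in the right panel blue runs from 71.3% to 44.6% and orange stays at or below 10.3%.

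Sites with and without Dlx5 also parted in the other cell line lists, and this held at matched row position. Over all primary Sp7 regions 39.6% met a cell line Sp7 region, 48.9% an Sp7mut region and 4.53% an Sp1 region. These sets held 5019, 8203 and 8942 regions, against 23688 of Dlx5, so the shares are not directly comparable with its 69.1%. The first 5000 Dlx5 regions met 50.1%. Cell line Sp7 was found at 56.1% of primary regions with Dlx5 (53.5 to 58.7) and at 2.77% of those without (1.65 to 4.35). In the first 20% of the order the shares were 71.3% and 10.3%, and in the last 20% they were 44.6% and 2.98%. Averaged over the 5 parts the difference was 51.3 percentage points, and over pairs of single lists 38.8 to 48.4. With the wider 50% of peaks in each list it was 8.77. With single lists of cell line Sp7 as the partner, 63.7% and 61.9% stood against 4.93% and 4.31%. For peak calling, cell line Sp7 shared its input library with Dlx5 and not with primary Sp7, and the part of that input in this difference was not tested.

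Sp7mut followed the same pattern at 68.2% with Dlx5 and 6.01% without, from 80.4% and 14.7% in the first part to 57.4% and 3.57% in the last. Its peaks were called with another cell line input than those of Dlx5. Sp1 was rare in both classes, at 6.08% and 1.08%. With the longer Sp1 list alone the shares were 38.3% and 4.16%, and with the shorter one 6.22% and 1.08%, so the level with Sp1 rested on which list was used. No region of these 3 groups was present at 388 of the 1448 primary regions with Dlx5 (26.8%) and at 605 of the 649 without (93.2%). Of the 330 regions with no Dlx5 peak, 306 had no peak in any of the 8 lists of tagged factors in the line, which was 14.6% of all primary Sp7 regions. Such regions made up 6.90% of the first part of the primary order and 22.2% of the last. Of all Dlx5 regions 18.0% met cell line Sp7. In the first 20% of the Dlx5 order the share was 71.8% with primary Sp7 and 41.4% without. In the 4 later parts the shares were closer, from 22.8% against 17.6% in the second to 9.52% against 5.66% in the last, with overlapping intervals in each.

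Primary peaks found in 1 list only met Dlx5 less often than those found in both. In primary replicate 1, 68.8% of the peaks that replicate 2 also held met a Dlx5 region (66.8 to 70.8), and 51.7% of the 476 others did (47.1 to 56.3). In replicate 2 the shares were 68.6% and 47.3% of 1003. In the last 20% of the rows the gap was smaller, at 59.2% and 48.1% in replicate 1 and 53.4% and 46.7% in replicate 2, and the intervals overlapped in both.

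Primary Sp7 regions had a median width of 225 bp with Dlx5 and 230 bp without, and single peaks 195 against 197 bp in list 1 and 178 against 181 bp in list 2. Dlx5 regions were narrower with primary Sp7, at 191 bp (quartiles 168 and 226), than without, at 222 bp (181 and 293). Across the 19 autosomes the share of primary regions with Dlx5 lay between 59.0% on chromosome 3 (50.5 to 67.1) and 80.7% on chromosome 6 (72.4 to 87.3). Seen from Dlx5, the share with primary Sp7 ran from 4.15% on chromosome 19 to 8.77% on chromosome 13.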

How the data were processed

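The data are ChIP-seq peak lists of mouse osteoblasts, 1 per library for 12 of 15 samples; the 3 input samples have no list here. The values are start and end positions in mm9, per the submitters' processing notes, and the authors deposited no score or count. Per the labels, peaks were called per library, those of primary Sp7 and its control against 1 primary input and those of Dlx5 and cell line Sp7 against 1 cell line input. For aligner, peak caller and threshold, nothing is given in the sources used here. Groups came from the sample titles. Peaks of replicates that overlapped or touched were merged. Other overlaps needed 1 bp. The row position of a region is the smallest row of its peaks as a percentage of the list, averaged over replicates, and regions were then ranked. Gaps run edge to edge. Intervals are 95% Clopper-Pearson. Named regions are the first 10 primary Sp7 regions with and without Dlx5, the first 5 Dlx5 regions without primary Sp7, and the 5 largest primary groups. The comparison and its measures were chosen with earlier results of these data known. The interval code was tested on simulated lists. Python 3.11.15, numpy 2.4.6, scipy 1.17.1, networkx 3.6.1 and matplotlib 3.10.9 were used. Transcription starts and motifs were not analysed, since they need the sequence or annotation of mm9. Alternatives were a 50% overlap, control peaks kept or pooled, replicates left out, shortened lists, width in place of row order, and other distances.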

Additional observations from a re-analysis of the deposited data

How the results depend on the processing

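The spread used here is the SD over the 4 pairs of single lists, which share lists and are not regions of both replicates. Of 84 values under alternatives, 46 moved by less than it, 29 by more, and 9 changed sign. Asking that 50% of each peak be shared gave a share of primary Sp7 regions with Dlx5 of 60.4%, a difference between its first and last parts of 31.0 percentage points, a midpoint distance of 19.75 bp and a difference in cell line Sp7 of 41.3 points. Keeping the wider 50% of each list gave 15.7% and, from Dlx5, 1.44%, with differences of 8.99 and 4.71 points between first and last parts, 31.2 bp, 0.674 points for primary neighbours and 8.77 points for cell line Sp7. With as many Dlx5 as primary regions both shares were 35.7% and the distance 19.25 bp. The earlier 50% of the rows gave 20.1 bp and the first 2000 peaks 18.5 bp. Width in place of row order turned the differences between first and last parts to -1.59 points for primary Sp7 and -3.23 for Dlx5. The difference in Dlx5 neighbours was -0.118 points with control peaks kept, -1.03 with the earlier 50%, -2.72 within 2 kb and -0.588 within 50 kb. Leaving out each replicate, so that the other list of its group counted alone, gave 61.7 to 82.5% of primary regions with Dlx5 and 4.38 to 8.08% of Dlx5 regions with primary Sp7. The first and last parts then differed by 19.1 to 28.1 points for primary Sp7 and 16.2 to 25.4 for Dlx5. The difference in cell line Sp7 was 43.0 to 51.4 points, and that in Dlx5 neighbours -1.61 to 3.01, below 0 without either Dlx5 replicate. The cause was not tested. No paired analysis was possible because the results come from no test over samples. Depth is unknown, so a site without a peak cannot be called unbound.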

Other observations

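Primary Sp7 regions also lay in very close neighbouring pairs, a class looked at after the values were seen. Of 33 neighbouring pairs with a gap of at most 1 kb, median 293 bp, 18 had Dlx5 at exactly 1 of the 2 regions, 5 at both and 10 at neither. At gaps of 1 to 10 kb, 31 of 99 pairs were split in this way, at gaps of 10 to 50 kb 69 of 203, and at larger gaps 707 of 1742. These shares were 54.5%, 31.3%, 34.0% and 40.6% from the closest to the farthest pairs. No interval was taken for them. The split share to be had from the frequency of Dlx5 in each class was not computed, so no excess can be read from these values. Where a primary region with Dlx5 had its nearest primary neighbour within 50 kb, that neighbour had Dlx5 in 73.2% of 410 cases (68.6 to 77.4). For regions without Dlx5 it was 55.1% of 198 (47.8 to 62.1). Regions nearest to each other were counted from both ends, so the cases are not independent and these intervals do not allow for it.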
